A study of Mus musculus with 15 samples.

Results

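The genes described here encode non-collagen proteins of the extracellular matrix: glycoproteins, elastic fibre components, matricellular proteins and proteoglycans. They were chosen by symbol, as a list of 37 genes, and each of the 37 was found once among the 57132 gene identifiers of the count table. Of these, 35 passed the filter on low counts, as did 18181 identifiers in all. Bulk liver RNA came from male C57BL/6J mice, an inbred laboratory strain, that were 8 weeks old when the diets began. For 18 weeks the SR9009 mice were fed CDA-HFD, a fat-rich diet that lacks choline and has an altered amino acid mix, which produces steatohepatitis and scarring in mice. They were also injected intraperitoneally each day at 100 mg/kg in the last 6 of those weeks with SR9009, a synthetic agonist of the REV-ERB nuclear receptors. Vehicle mice had the same diet and, in the same weeks, injections of the carrier, 15% Kolliphor ELP in injectable NaCl. Chow mice ate standard chow for 18 weeks. The analysis holds 5 SR9009, 5 Vehicle and 4 Chow libraries, out of arms of 15, 15 and 10 mice. Chow replicate 5 was not analysed here. No injection of Chow mice is described, and in comparisons with Chow the effects of diet and of being injected cannot be told apart.

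The matrix of the liver is secreted mostly by hepatic stellate cells, portal fibroblasts and other mesenchymal cells, while hepatocytes release plasma fibronectin into the blood. Small leucine-rich proteoglycans bind collagen fibrils and shape their width and spacing, and fibrillin microfibrils carry elastin and store latent TGF-beta, the main fibrogenic cytokine. Matricellular proteins are secreted into the matrix but act mainly on cells and growth factors rather than as structural parts. In chronic liver injury many of these genes are known to be switched on with the fibrillar collagens.

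Total counts ran from 29950509 to 45542335 per library. Levels are given as CPM, the usual depth-scaled count, with each library total multiplied by a factor from the trimmed mean of M-values (TMM), and 3 counts, taken as the detection floor, came to between 0.0659 and 0.1 CPM before that scaling. Chow and diet-fed libraries were parted along the first principal component (66.6% of variance). Diet-fed libraries also fell into 2 classes seen only in the data, by the number of chemosensory receptor genes (olfactory, vomeronasal, trace amine; 1752 listed) with a count. SR9009 replicates 1 and 3 and Vehicle replicates 4 and 5 had 58 to 76 such genes, while SR9009 replicates 2, 4 and 5 and Vehicle replicates 1, 2 and 3 had 150 to 231. The Chow libraries had 45 to 105. Summed hepatocyte markers were between 67081 and 147390 CPM in every library, which fits the labelled tissue. Nothing in the labels says how many animals each library holds, so p-values measure the spread between these libraries.

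Vehicle livers were compared with Chow livers to see which matrix genes the diet, with the injections, moved. Of the 35 tested genes, 32 were higher in Vehicle, 2 (Fn1 and Ecm1) were lower and 1 (Ogn) did not pass the threshold, an adjusted p of 0.05 in edgeR's quasi-likelihood test. Among all 18181 tested genes 29.8% were called higher and 25.4% lower. The median log2 fold change was 2.21 over the 35 genes and 0.02 over all tested genes. The ratios of the 32 higher genes ran from 1.79 for Podn to 35.6 for Thbs1, with 23 at 4-fold or more, and their adjusted p-values ran from 2.32e-10 to 0.00463. In 31 of the 35 every Vehicle library lay above every Chow library, against 24.7% of all tested genes. Among the genes counted here, Mfap2 and Vcan were scarce in Chow and passed the filter through the diet-fed groups, where they were higher.

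**Figure D1:**
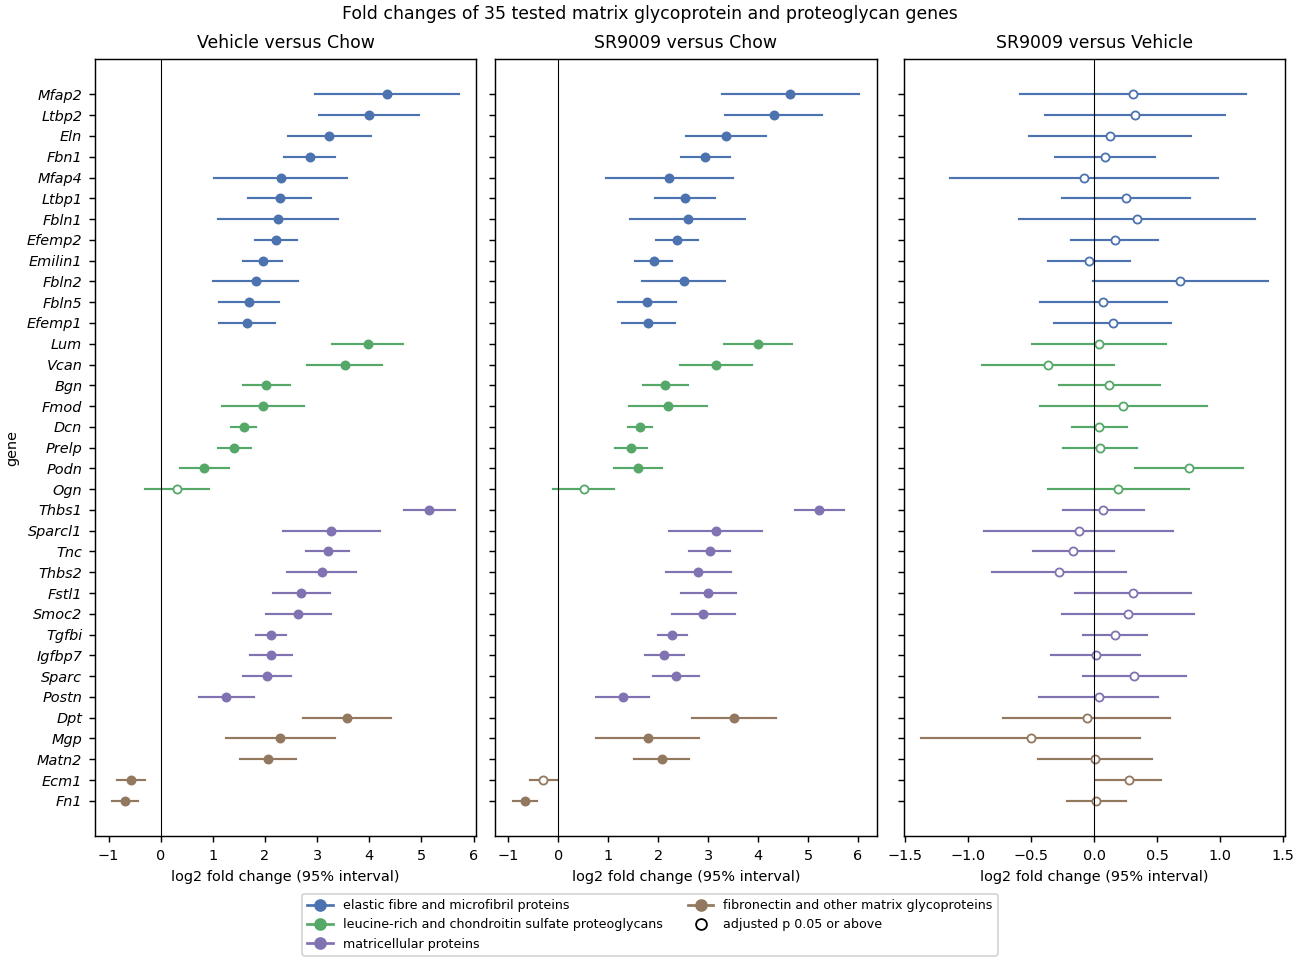
Log2 fold changes of the 35 tested genes with 95% intervals, in 3 panels for Vehicle versus Chow, SR9009 versus Chow and SR9009 versus Vehicle. Colours mark the role of the protein, and open circles mark an adjusted p of 0.05 or above. In both comparisons with Chow most points lie well right of 0, with Fn1 and Ecm1 left of it, while against Vehicle 33 of the 35 intervals hold 0. Without TMM factors neither Fn1 nor Ecm1 is called, and Ecm1 in SR9009 versus Chow turns to 0.15.

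Elastic fibre and microfibril genes rose together: all 12 that were tested were higher in Vehicle livers, by ratios of 3.14 to 20.2 and a median log2 fold change of 2.27. Fbn1 encodes fibrillin 1, the backbone of microfibrils. It stood at 28.2, 35.9, 19.1, 32.3 and 26.0 CPM in SR9009, 26.4, 38.6, 26.3, 25.5 and 16.6 CPM in Vehicle and 3.82, 3.98, 3.54 and 3.38 CPM in Chow livers. Every diet-fed liver was above every Chow liver, and the SR9009 and Vehicle livers overlapped. The Vehicle to Chow ratio of Fbn1 was 7.23 (log2 2.85 ± 0.23 SE, edgeR adjusted p = 1.21e-07). Efemp2 encodes fibulin 4, which is needed for elastic fibre assembly and for the delivery of lysyl oxidase. Its levels were 14.7, 23.6, 12.3, 23.2 and 17.8 CPM in SR9009, 18.4, 17.7, 16.2, 15.9 and 13.5 CPM in Vehicle and 3.47, 3.98, 2.78 and 3.88 CPM in Chow livers. Again the diet-fed livers stood apart from Chow and overlapped each other, with a Vehicle to Chow ratio of 4.63 (log2 2.21 ± 0.19 SE, edgeR adjusted p = 1.79e-07). Emilin1 encodes a glycoprotein at the interface of elastin and microfibrils. The libraries held 73.0, 113, 62.8, 115 and 76.4 CPM in SR9009, 104, 91.0, 89.0, 94.3 and 75.0 CPM in Vehicle and 25.9, 24.9, 20.3 and 22.3 CPM in Chow livers, so that the lowest diet-fed liver, SR9009 replicate 3, was still above the highest Chow liver. The Emilin1 ratio was 3.88 (log2 1.96 ± 0.17 SE, edgeR adjusted p = 2.82e-07).

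Of the other tested members of that group, Eln, the gene of elastin itself, averaged 44.8 ± 12.9 CPM in Vehicle and 4.74 ± 1.04 CPM in Chow livers (SD, n = 5 and 4), a ratio of 9.39. Mfap2 and Mfap4, which encode microfibril-associated glycoproteins, had ratios of 20.2 and 4.93. Mfap2 was scarce in Chow, with 1, 5, 3 and 4 counts, and passed the filter through the diet-fed groups. Its ratio has a wide interval, 7.76 to 52.5, and the size of that ratio is uncertain. Ltbp1 encodes a protein that tethers latent TGF-beta to the matrix, and Ltbp2 encodes a fibrillin-binding relative of it, and their ratios were 4.86 and 15.9. Fbln1, Fbln2, Fbln5 and Efemp1 encode fibulins, which bridge elastic fibres, basement membranes and cells, and they had ratios of 4.76, 3.54, 3.25 and 3.14. Mfap5, the second member of the MAGP family of microfibril glycoproteins, did not pass the filter, with 2, 0, 1, 1 and 37 counts in SR9009, 12, 0, 1, 4 and 1 in Vehicle and 3, 8, 1 and 12 in Chow livers. Its highest count was in SR9009 replicate 5, and the groups overlapped.

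Proteoglycan genes rose in 7 of the 8 cases tested, with a median log2 fold change of 1.78. Dcn encodes decorin, which coats collagen fibrils and binds TGF-beta. It was at 408, 466, 392.3, 488 and 397 CPM in SR9009, 492, 428, 408, 409 and 354 CPM in Vehicle and 149.6, 156, 125 and 125 CPM in Chow livers. The diet-fed and Chow livers were far apart, and Dcn had a smaller spread among the diet-fed livers than any other tested member, an SD of 0.15 on the log2(CPM + 0.1) scale. Its Vehicle to Chow ratio was 3.01 (log2 1.59 ± 0.11 SE, edgeR adjusted p = 2.06e-08). Lum encodes lumican, another fibril-binding proteoglycan. The libraries had 88.3, 164, 85.2, 162 and 87.6 CPM in SR9009, 148, 123, 125, 94.5 and 82.3 CPM in Vehicle and 10.0, 8.62, 5.89 and 4.66 CPM in Chow livers, a ratio of 15.6 between Vehicle and Chow (log2 3.97 ± 0.31 SE, edgeR adjusted p = 2.14e-07). Within SR9009, replicates 2 and 4 stood above the other SR9009 replicates in Lum, and the SR9009 and Vehicle ranges overlapped. Vcan encodes versican, a large chondroitin sulfate proteoglycan of provisional matrix. It was scarce throughout, at 2.61, 2.02, 1.25, 1.60 and 2.46 CPM in SR9009, 3.24, 3.01, 2.19, 1.86 and 2.54 CPM in Vehicle and 0.105, 0.229, 0.331 and 0.206 CPM in Chow livers, and every diet-fed liver exceeded every Chow liver. The Vcan ratio was 11.5 (log2 3.53 ± 0.34 SE, edgeR adjusted p = 4.23e-07). Chow replicate 1 was at the floor of 3 counts for Vcan, and the gene passed the filter through the diet-fed groups, so the size of this ratio is uncertain.

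Bgn, encoding biglycan, a close relative of decorin, had a ratio of 4.06, and Fmod, encoding the fibril-binding fibromodulin, and Prelp, which encodes a proteoglycan that links collagen to basement membranes, had ratios of 3.91 and 2.66. Podn, the gene of podocan, rose least of the 32, by a ratio of 1.79 (log2 0.84 ± 0.22 SE, edgeR adjusted p = 0.00463), and Vehicle replicate 5 lay within the Chow range. Among only the diet-fed libraries with few receptor genes, set against all Chow libraries, that Podn difference was 0.58 with an adjusted p of 0.0534. Ogn, which encodes the small proteoglycan osteoglycin, was at 1.99, 4.93, 2.05, 4.08 and 3.60 CPM in SR9009, 3.47, 2.21, 3.35, 3.30 and 2.22 CPM in Vehicle and 2.53, 2.81, 2.55 and 1.44 CPM in Chow livers. The Ogn groups overlapped, and its log2 difference of 0.31 ± 0.29 (SE) did not pass (edgeR adjusted p = 0.372). In this comparison it was called under 1 alternative alone, scaling by library totals without TMM factors (log2 0.79, edgeR adjusted p = 0.0293). Aspn, the asporin gene, did not pass the filter, with 7, 0, 7, 6 and 1 counts in SR9009, 12, 2, 4, 1 and 2 in Vehicle and 3, 1, 8 and 3 in Chow livers, all low and overlapping.

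All 10 matricellular genes rose, by ratios of 2.38 to 35.6 and a median log2 fold change of 2.67. Thbs1 encodes thrombospondin 1, which can release TGF-beta from its latent complex. It was at 17.8, 20.9, 13.6, 20.8 and 17.2 CPM in SR9009, 17.4, 20.2, 16.3, 16.5 and 15.3 CPM in Vehicle and 0.456, 0.487, 0.232 and 0.783 CPM in Chow livers. No Chow liver reached 1 CPM, the lowest diet-fed liver was SR9009 replicate 3, and the Vehicle to Chow ratio of 35.6 was the highest of the 35 (log2 5.15 ± 0.23 SE, edgeR adjusted p = 2.32e-10). Tnc encodes tenascin-C, which appears in injured and growing tissue. Its levels were 10.7, 12.3, 9.44, 10.2 and 7.44 CPM in SR9009, 14.0, 11.2, 9.98, 10.2 and 10.9 CPM in Vehicle and 0.947, 1.46, 1.49 and 0.948 CPM in Chow livers, with the diet-fed livers close together and apart from Chow. The Tnc ratio was 9.18 (log2 3.20 ± 0.19 SE, edgeR adjusted p = 4.29e-09). Tgfbi encodes a TGF-beta-induced protein that binds collagen and integrins. It had 178, 245, 161, 229 and 165 CPM in SR9009, 183, 159, 180.2, 189.8 and 160.5 CPM in Vehicle and 42.3, 45.8, 33.9 and 38.5 CPM in Chow livers, and a ratio of 4.35 (log2 2.12 ± 0.14 SE, edgeR adjusted p = 8.23e-09). Here too the SR9009 and Vehicle livers overlapped and both stood above Chow.

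Thbs2 encodes thrombospondin 2, which restrains vessel growth, and had a ratio of 8.47. Sparc encodes a collagen-binding protein that aids fibril assembly, and Sparcl1 its relative hevin, and their ratios were 4.11 and 9.64. Smoc2 and Fstl1, which encode other secreted proteins with follistatin-like domains, had ratios of 6.21 and 6.49. Igfbp7, whose product binds insulin-like growth factors weakly and sits in vascular matrix, averaged 319 ± 55.2 CPM in Vehicle and 73.6 ± 7.46 CPM in Chow livers (SD, n = 5 and 4), a ratio of 4.33. Postn, encoding periostin, which links matrix to integrins in healing tissue, had the lowest ratio of the group, 2.38.

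The remaining group, fibronectin and other matrix glycoproteins, split. Dpt, encoding the collagen-binding protein dermatopontin, was at 27.3, 77.1, 34.3, 75.2 and 44.5 CPM in SR9009, 80.0, 50.4, 56.6, 43.7 and 38.4 CPM in Vehicle and 6.56, 4.64, 4.24 and 2.51 CPM in Chow livers, with every diet-fed liver above Chow and a ratio of 11.9 (log2 3.58 ± 0.39 SE, edgeR adjusted p = 4.93e-06). Matn2, encoding the filament-forming protein matrilin 2, was at 3.88, 5.50, 3.79, 5.06 and 4.10 CPM in SR9009, 5.20, 4.78, 4.76, 4.01 and 3.48 CPM in Vehicle and 1.16, 1.55, 0.497 and 1.03 CPM in Chow livers, again without overlap between diet-fed and Chow livers and with a ratio of 4.17 (log2 2.06 ± 0.26 SE, edgeR adjusted p = 5.58e-06). Mgp, which encodes the calcification inhibitor matrix Gla protein, had a ratio of 4.90. Fn1 encodes fibronectin, both the plasma form from hepatocytes and the cellular form in scars, which these gene counts do not separate. It was at 1534, 1167, 1475, 1212 and 1384 CPM in SR9009, 1259, 1297, 1098, 1606 and 1425 CPM in Vehicle and 2079.9, 2058, 2187 and 2279 CPM in Chow livers. Every Chow liver was above every diet-fed liver, and the Fn1 ratio of Vehicle to Chow was 0.622 (log2 -0.69 ± 0.12 SE, edgeR adjusted p = 0.000103). Ecm1 encodes extracellular matrix protein 1, which in mouse liver holds latent TGF-beta inactive. It was at 88.4, 98.0, 94.7, 97.0 and 85.1 CPM in SR9009, 79.0, 65.6, 67.3, 90.7 and 80.2 CPM in Vehicle and 129, 139.6, 104 and 83.9 CPM in Chow livers. Vehicle replicate 4 lay above Chow replicate 4, so the groups overlapped, and the ratio was 0.672 (log2 -0.57 ± 0.13 SE, edgeR adjusted p = 0.00127).

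Both falls depended on how libraries were scaled. TMM factors were 0.753 to 0.824 in Chow and 1.02 to 1.15 in diet-fed libraries. With total counts alone, a setting chosen after seeing the data, the median of all genes in Vehicle versus Chow moved to 0.50, and 10389 genes were called higher and 1378 lower, against 5414 and 4621 with TMM. Fn1 was then at -0.21 (edgeR adjusted p = 0.0829) and Ecm1 at -0.10 (edgeR adjusted p = 0.518), both below that median and neither called. Hepatocyte markers were also lower in Vehicle: their summed level was 78639.6 to 84887 CPM in Vehicle and 109346 to 147390 CPM in Chow livers. Of the 10, 8 were called lower and 0 higher, against 25.4% and 29.8% of all tested genes. These marker values are on the TMM scale only. The part of hepatocytes in the fall of Fn1 and Ecm1 was not tested. In bulk RNA, fewer cells of a type and less RNA per cell cannot be told apart.

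**Figure D2:**
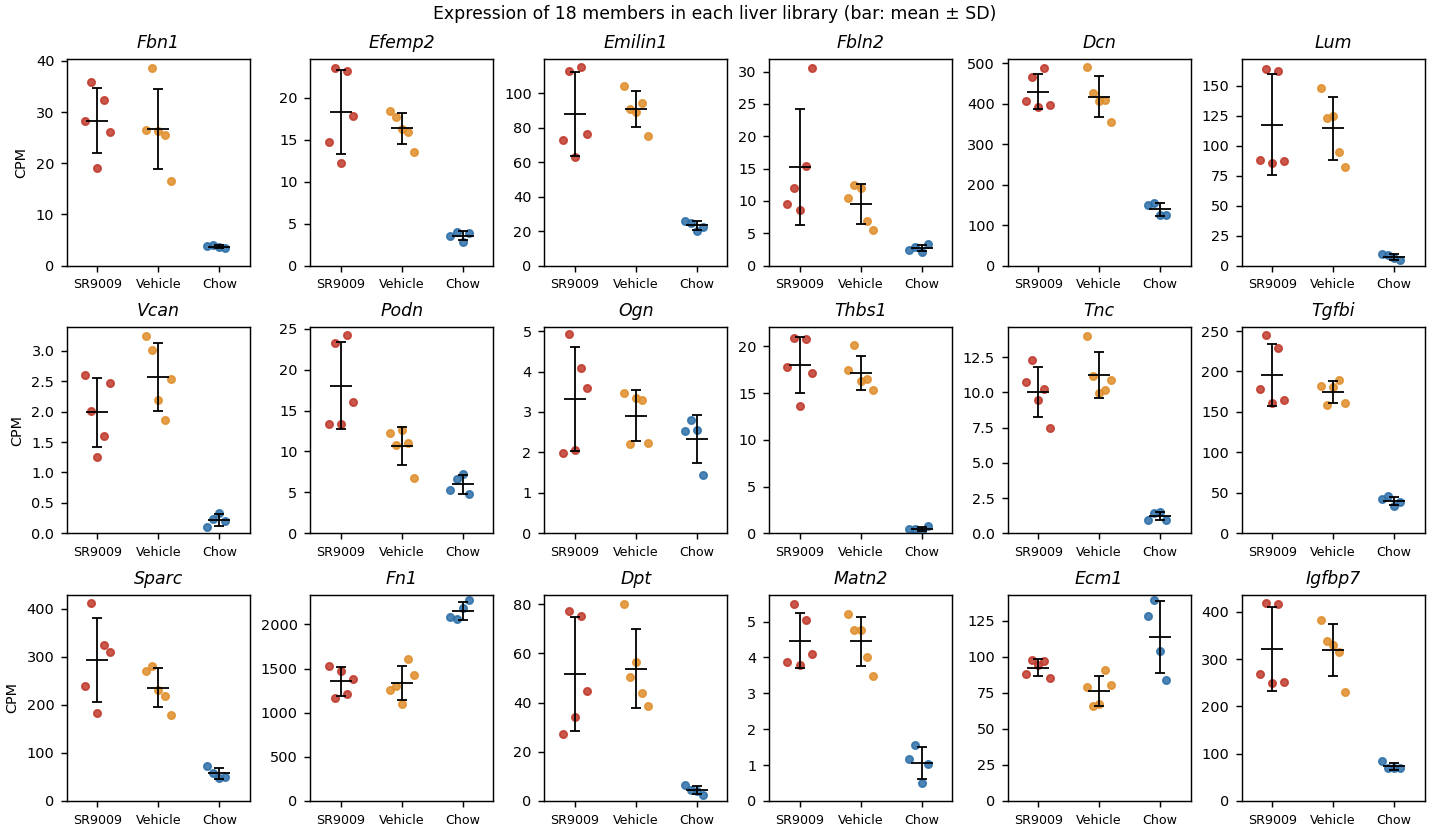
CPM of 18 of the genes in each library, with SR9009, Vehicle and Chow from left to right in each panel. Points are single libraries and bars are the mean ± SD. Fn1 and Ecm1 are highest in Chow on the TMM scale, Ogn overlaps in all groups, and the other 15 genes average higher in both diet-fed groups than in Chow, with Podn the one gene in which SR9009 lies wholly above Vehicle.

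Markers of several other cell types, but not of all those listed, moved with the matrix genes. Macrophage markers summed to 1867 to 2807 CPM in Vehicle and 171 to 580.2 CPM in Chow livers, with 9 of 10 called higher and a median log2 fold change of 3.45. Cholangiocyte markers summed to 416 to 985 CPM in Vehicle and 50.4 to 85.05 CPM in Chow livers, with 8 of 8 higher and a median of 3.37. Hepatic stellate cell markers summed to 399 to 461 CPM in Vehicle and 201 to 260.2 CPM in Chow livers, with 10 of 12 called higher, 1 lower and a median of 1.03. Portal fibroblast markers summed to 29.7 to 59.6 CPM in Vehicle and 11.9 to 29.6 CPM in Chow livers, with 8 of 10 higher and a median of 2.28. None of these markers was below 0.1 CPM throughout a group. Not all lists rose. Of 9 sinusoidal endothelial cell markers 2 were called higher and 3 lower (median -0.096). Of 5 tested red blood cell markers 0 were higher and 1 lower (median -0.52). Of 5 tested B and plasma cell markers 0 were called (median -0.13). Mesothelial markers had 3 of 9 called higher (median 1.52), and smooth muscle markers 3 of the 4 tested. Among all tested genes 29.8% were called higher and 25.4% lower. Lrat, the retinol-storing enzyme of stellate cells, was at 25.4, 18.7, 30.5, 12.9 and 17.0 CPM in SR9009, 14.7, 22.8, 16.9, 19.2 and 26.4 CPM in Vehicle and 22.1, 27.2, 13.4 and 20.7 CPM in Chow livers, and the 3 groups overlapped. How far the number of these cells contributed to the matrix genes was not tested.

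Levels of different genes were compared per kilobase of exon, using all annotated exons of a gene merged, which understates genes with long exons that are rarely used. On that scale the summed level of the 37 genes was 717 to 1015 CPM per kb in Vehicle and 377 to 424 CPM per kb in Chow livers. The make-up changed with it. Fn1 was the highest of the 37 in Chow at 184 CPM per kb and made 41.9% to 51.7% of the sum, but 10.6% to 17.0% in Vehicle livers. In Vehicle the highest was Igfbp7 at 264 CPM per kb, followed by Fn1 at 114, Dcn at 71.6, Bgn at 66.5 and Sparc at 62.2. In Chow, Igfbp7 was at 60.9, Ecm1 at 45.2, Dcn at 23.8 and Bgn at 16.3 CPM per kb. The highest in SR9009 livers were the same 5 genes as in Vehicle, with Igfbp7 at 266, Fn1 at 116, Sparc at 77.6, Dcn at 73.7 and Bgn at 72.3 CPM per kb. The order of Sparc, Dcn and Bgn within the diet-fed groups is not firm, since their differences are smaller than the spread between libraries. Without Fn1, the sum was 615 to 1066 CPM per kb in SR9009, 595 to 907 in Vehicle and 182 to 246 in Chow livers.

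**Figure D3:**
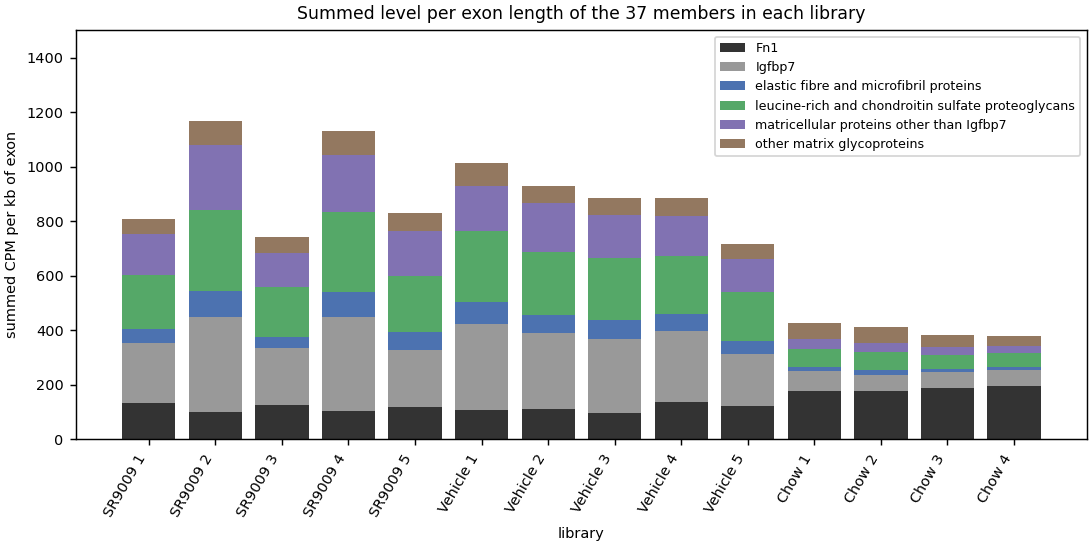
Summed CPM per kb of exon of the 37 genes in each library, split into Fn1 (black), Igfbp7 (grey) and the role groups (colours). SR9009 livers reach 741 to 1165, Vehicle livers 717 to 1015 and Chow livers 377 to 424 CPM per kb, and Fn1 takes 41.9% to 51.7% of the bar in Chow against 8.57% to 17.0% in SR9009.

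SR9009 livers were compared with Vehicle livers to see whether the agonist moved these genes in animals already on the diet. edgeR called 0 of the 35 higher and 0 lower, where 0.165% of all tested genes were called higher and 0.077% lower. At an unadjusted p under 0.05, 2 members (Podn and Ecm1) were higher and 0 lower, against 3.91% and 3.37% of all tested genes. DESeq2 called 1 (Podn) and limma-voom 0. Over all 18181 tested genes DESeq2 called 124 higher and 88 lower, and limma-voom 40 and 26, against 30 and 14 in edgeR. Ratios of SR9009 to Vehicle ran from 0.706 for Mgp to 1.69 for Podn with a median of 1.06. Of the 35, 27 lay above 1 and 8 below, where 9136 of all 18181 tested genes lay above 1. The members varied together between livers, as given below, so these are not 35 independent counts. The 95% interval of the ratio held 1 for 33 of the 35 and lay wholly between 0.5 and 2 for 28. The median log2 difference of the 35 was 0.09 in all libraries, 0.19 among those with many receptor genes and -0.05 among those with few, where 16 of the 35 changed sign. The intervals of Fbln1, Fbln2, Podn, Ltbp2 and Mfap2 reached above 2, and those of Mgp and Mfap4 reached below 0.5, so changes of that size in these genes lie within the error.

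The SR9009 to Vehicle ratio was 1.03 (0.886 to 1.196) for Dcn, 1.05 (0.843 to 1.32) for Thbs1, 1.01 (0.863 to 1.19) for Fn1 and 1.12 (0.939 to 1.34) for Tgfbi. The interval was wider for Lum, at 1.03 (0.709 to 1.49), for Eln, at 1.09 (0.701 to 1.70), and for Mgp, at 0.706 (0.387 to 1.29). By role, the median ratio was 1.11 over 12 elastic fibre genes, 1.06 over 8 proteoglycan genes, 1.04 over 10 matricellular genes and 1.01 over the 5 others, beside 1 over all tested genes.

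Podn, encoding podocan, a small leucine-rich proteoglycan, stood out most. It was at 13.3, 23.3, 13.4, 24.3 and 16.0 CPM in SR9009, 12.3, 10.8, 12.6, 10.97 and 6.81 CPM in Vehicle and 5.30, 6.59, 7.18 and 4.78 CPM in Chow livers. Every SR9009 liver was above every Vehicle liver, which was so, in that direction, for 0.891% of all tested genes, and no member was lower without overlap, against 0.979%. The ratio was 1.69 (1.26 to 2.27; log2 0.76 ± 0.20 SE). Podn is given here as the member with the smallest unadjusted p of the 35. After adjustment over all tested genes the edgeR p was 0.221. It was 0.0323 in DESeq2, 0.129 in limma-voom and 0.0416 with the receptor gene class as a term, and over all alternatives it ran from 0.0323 to 1. Within the libraries with many receptor genes the mean was 21.2 CPM in SR9009 and 11.9 CPM in Vehicle (log2 0.83, edgeR adjusted p = 0.163), and within those with few it was 13.4 and 8.89 CPM (log2 0.59, edgeR adjusted p = 1).

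Mesothelial markers, listed for the cells that cover the liver surface, moved with Podn. Krt19 is also in the cholangiocyte list, so their sum is not of surface cells alone. Their summed level was 49.6, 172, 45.5, 152 and 149 CPM in SR9009, 89.1, 42.9, 62.2, 59.0 and 31.8 CPM in Vehicle and 6.16 to 24.2 CPM in Chow livers. All 9 of them had a log2 difference above 0 between SR9009 and Vehicle (median 1.31), 0 were called in edgeR and 4 were higher at an unadjusted p under 0.05. All 5 tested red blood cell markers (median 1.14) and all 8 cholangiocyte markers (median 0.24) also lay above 0, with 0 called. Msln, the mesothelin gene, was at 7.76, 31.1, 8.94, 31.6 and 29.2 CPM in SR9009 and 15.8, 1.22, 5.59, 11.9 and 4.42 CPM in Vehicle livers. SR9009 replicates 1 and 3 had mesothelial marker sums inside the Vehicle range. Their levels of Wt1, another of these markers, were 2.63 and 2.03 CPM, below the lowest Vehicle level of 3.89 CPM. The part of mesothelial cells in the Podn difference was not tested.

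Ecm1 had a ratio of 1.21 (1.01 to 1.45) and an unadjusted p of 0.0389 (exact permutation p = 0.0238), which did not pass over all genes (edgeR adjusted p = 0.640). SR9009 livers lay between 85.1 and 98.0 CPM and Vehicle livers between 65.6 and 90.7 CPM, so the groups overlapped. Fbln2, encoding fibulin 2, was at 9.50, 12.1, 8.53, 15.4 and 30.5 CPM in SR9009, 10.4, 12.5, 11.9, 6.86 and 5.53 CPM in Vehicle and 2.46, 2.83, 2.12 and 3.30 CPM in Chow livers. Its ratio of 1.61 (0.995 to 2.60; edgeR adjusted p = 0.693, exact permutation p = 0.190) rested largely on SR9009 replicate 5, without which the log2 difference was 0.27 instead of 0.69. Sparc was at 239, 412, 183, 325 and 311 CPM in SR9009, 270.4, 281, 230.3, 218 and 179.5 CPM in Vehicle and 72.5, 59.1, 47.4 and 50.7 CPM in Chow livers. Vehicle livers lay inside the SR9009 range but for the lowest one, and the ratio was 1.25 (0.940 to 1.65; edgeR adjusted p = 0.801, exact permutation p = 0.262). The Sparc log2 difference of 0.32 was 0.17 without SR9009 replicate 2 and 0.44 without SR9009 replicate 3. Vcan, with libraries as given above, had a ratio of 0.775 (0.540 to 1.11; edgeR adjusted p = 0.848, exact permutation p = 0.151), and its groups overlapped. These permutation p-values are unadjusted, and 252 regroupings allow none below 0.00794, which was the exact permutation p of Podn. They were run only on the 5 members with the smallest p in this comparison, so they add no separate support.

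Promoter sequences are shown for the genes that carry AGGTCA, the hexamer that REV-ERB receptors bind when it follows an A and T rich stretch. RefSeq (GRCm38.p6) gave the 250 bases before an annotated start for 26 of the 37 genes. AGGTCA, searched on both strands, was found for 4 of them (Efemp2, Mfap2, Podn and Postn), or 15.4%, against 15.8% of 27025 genes. The windows are those of Podn at its upstream start (chr4:108031955-108032204, minus strand) and its downstream start (chr4:108030987-108031236, minus strand), Postn at its upstream start (chr3:54359017-54359266, plus strand), Mfap2 at its upstream start (chr4:141010174-141010423, plus strand) and its downstream start (chr4:141010431-141010680, plus strand), Efemp2 at the 1 of its 3 starts whose window holds the hexamer (chr19:5474440-5474689, plus strand), and Ecm1 (chr3:95739570-95739819, minus strand), the other gene with an unadjusted p under 0.05. Capitals mark AGGTCA or its complement TGACCT, the GC box GGGCGG or its complement CCGCCC, the AP-1 motif TGANTCA and the TATA motif TATAAA.
Podn upstream start: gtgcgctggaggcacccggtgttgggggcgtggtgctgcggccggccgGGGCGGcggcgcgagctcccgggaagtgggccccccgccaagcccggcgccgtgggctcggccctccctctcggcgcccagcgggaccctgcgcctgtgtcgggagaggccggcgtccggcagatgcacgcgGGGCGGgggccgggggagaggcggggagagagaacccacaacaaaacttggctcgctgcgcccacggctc
Podn downstream start: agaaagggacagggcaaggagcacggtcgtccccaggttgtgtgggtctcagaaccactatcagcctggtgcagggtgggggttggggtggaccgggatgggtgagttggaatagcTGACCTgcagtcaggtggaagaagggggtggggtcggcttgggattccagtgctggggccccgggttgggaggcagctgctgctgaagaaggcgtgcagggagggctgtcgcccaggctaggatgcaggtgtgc
Postn: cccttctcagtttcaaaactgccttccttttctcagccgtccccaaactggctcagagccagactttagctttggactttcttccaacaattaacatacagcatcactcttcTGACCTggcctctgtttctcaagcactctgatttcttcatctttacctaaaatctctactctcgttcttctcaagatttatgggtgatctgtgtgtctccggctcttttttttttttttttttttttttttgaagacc
Mfap2 upstream start: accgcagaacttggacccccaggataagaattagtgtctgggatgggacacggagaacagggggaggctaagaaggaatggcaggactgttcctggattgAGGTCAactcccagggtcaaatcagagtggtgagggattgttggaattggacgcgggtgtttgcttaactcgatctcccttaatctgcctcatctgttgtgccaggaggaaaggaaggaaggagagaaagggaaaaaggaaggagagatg
Mfap2 downstream start: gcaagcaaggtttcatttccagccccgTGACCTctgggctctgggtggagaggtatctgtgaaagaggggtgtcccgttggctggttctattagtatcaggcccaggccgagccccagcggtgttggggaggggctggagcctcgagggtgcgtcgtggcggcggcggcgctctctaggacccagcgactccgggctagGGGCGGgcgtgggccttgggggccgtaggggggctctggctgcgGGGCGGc
Efemp2: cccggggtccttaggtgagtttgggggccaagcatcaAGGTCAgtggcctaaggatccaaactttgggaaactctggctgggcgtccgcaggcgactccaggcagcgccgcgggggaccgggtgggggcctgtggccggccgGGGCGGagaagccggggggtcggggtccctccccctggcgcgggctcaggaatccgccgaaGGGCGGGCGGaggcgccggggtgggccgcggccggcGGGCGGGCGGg
Ecm1: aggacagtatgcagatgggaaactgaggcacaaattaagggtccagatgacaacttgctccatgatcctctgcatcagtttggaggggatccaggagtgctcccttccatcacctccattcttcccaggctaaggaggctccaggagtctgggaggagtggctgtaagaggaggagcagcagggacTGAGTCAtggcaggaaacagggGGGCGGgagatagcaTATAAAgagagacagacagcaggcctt
The hexamer stands once in the downstream Podn window and not in the upstream one, and once each in the Postn, Mfap2 and Efemp2 windows shown. Postn and Mfap2 had SR9009 to Vehicle ratios of 1.02 (0.740 to 1.42) and 1.24 (0.667 to 2.30), and Efemp2 one of 1.12 (0.882 to 1.43). The GC box was found for 16 of the 26 genes (61.5%, against 35.4% of all), TATAAA for 6 (23.1%, against 14.3%), TGANTCA for Ecm1 and Efemp1 (7.69%, against 7.82%) and the E-box CACGTG for Fbln1 (3.85%, against 6.86%). The search did not ask for the A and T rich stretch. In no match shown, read in its own direction, did such a stretch directly precede AGGTCA. A match describes the letters of the window only.

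SR9009 livers set against Chow gave a picture of the same kind, and that comparison shares its Chow libraries with the one of Vehicle. Of the 35 genes, 32 were higher, where 30.5% of all tested genes were, and 1 (Fn1) was lower, where 25.7% were. The 32 ratios ran from 2.44 to 37.5, with edgeR adjusted p-values up to 0.00552, and the median log2 fold change was 2.36 over the 35 and 0.02 over all tested genes. Thbs1 had log2 5.23 in SR9009 and 5.15 in Vehicle livers, Bgn 2.15 and 2.02, Fbn1 2.94 and 2.85, and Dcn 1.63 and 1.59, each against Chow. Podn had log2 1.59 in SR9009 (edgeR adjusted p = 2.3e-05) and 0.84 in Vehicle. Fn1 was at -0.67 (edgeR adjusted p = 0.000128) in SR9009, or -0.22 without TMM factors (edgeR adjusted p = 0.0719), where the median of all genes was 0.47. Ecm1, called lower in Vehicle, was at -0.30 in SR9009 (edgeR adjusted p = 0.0583) and, without TMM factors, at 0.15. The Ecm1 difference between SR9009 and Vehicle itself is the one given above. Ogn was at 0.51 (edgeR adjusted p = 0.145), and was called among the libraries with many receptor genes (log2 0.84, edgeR adjusted p = 0.0117) and without TMM factors (log2 0.97, edgeR adjusted p = 0.0103).

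Within the diet-fed groups the genes varied together. On the log2(CPM + 0.1) scale the median SD over the 35 genes was 0.43 in SR9009, 0.31 in Vehicle and 0.36 in Chow livers. Among the 10 diet-fed livers SR9009 replicates 2 and 4 lay above the mean in 33 and 31 of the 35 genes, by a median of 0.48 and 0.42, and one or the other was the highest diet-fed liver for 22 genes. SR9009 replicate 3 and Vehicle replicate 5 were above the mean in 3 and 4 genes, with medians of -0.47 and -0.38, and one or the other was the lowest for 27. The same counts over all tested genes are not given, so this pattern is not shown to be particular to the 35. The spread was widest in Mfap4 and Mfap2, with SDs of 0.90 and 0.82 over the diet-fed livers, and small in Fn1 (0.18) and Thbs1 (0.20).

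This order followed the receptor gene classes. In the diet-fed libraries with few receptor genes 32 of the 35 were lower, with a median difference of -0.51, beside -0.0029 over all tested genes, of which 50.5% were lower. Mfap4 (-1.53), Mfap2 (-1.34), Fbln1 (-1.28) and Mgp (-1.17) differed most between the classes, and Postn (0.31), Fn1 (0.29) and Ecm1 (0.13) were the 3 higher where few receptor genes were detected. Portal fibroblast markers moved with the classes, with sums of 36.0 and 42.7 CPM in SR9009 replicates 1 and 3 and 38.6 and 29.7 CPM in Vehicle replicates 4 and 5, against 72.8 to 90.0 CPM in the other SR9009 and 55.6 to 59.6 CPM in the other Vehicle livers. They were not alone in this. Cholangiocyte sums were 416 to 623 CPM in the diet-fed few-receptor livers and 774 to 1155 CPM in the many-receptor livers. Red blood cell sums were 106 to 152 and 243 to 888 CPM, and B and plasma cell sums 8.33 to 9.23 and 9.75 to 25.8 CPM. Sums of the other marker lists overlapped between the classes. Both treatments held libraries of both classes. Neither the receptor gene class nor these markers were tested as a cause of the spread.

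**Figure D4:**
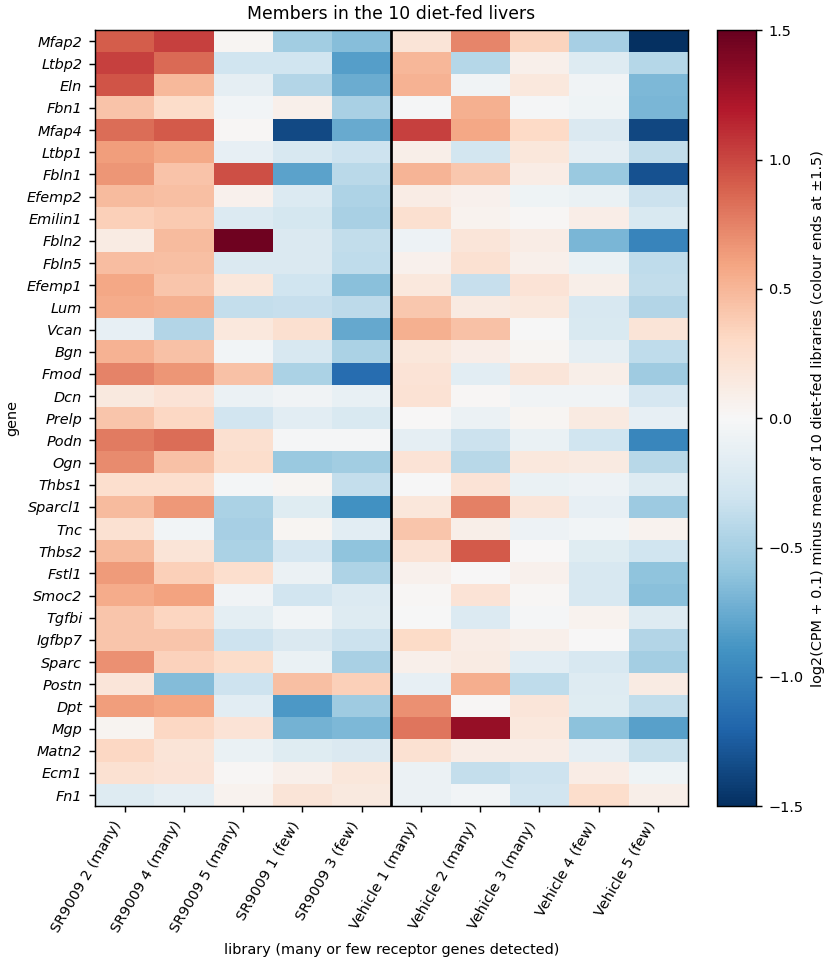
Deviation of each tested gene in each diet-fed library from its mean over the 10 diet-fed libraries, on the log2(CPM + 0.1) scale, with colour ending at ±1.5. Columns are SR9009 and then Vehicle libraries, marked by whether many or few receptor genes were detected. SR9009 replicates 2 and 4 are red in most rows, and SR9009 replicate 3 and Vehicle replicate 5 are blue in most.

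Other non-collagen matrix genes, a list of 96 of which 74 were tested, were counted beside these 35. In Vehicle versus Chow 41 were higher and 10 lower, against 29.8% and 25.4% of all tested genes. The median log2 fold change was 0.95, whereas the 35 had 2.21. Both lists were chosen with earlier results of these data known, so no conclusion is drawn from that difference. The 3 largest rises were in Ccn5, Svep1 and Fbn2. Ccn5, of the CCN matricellular family, averaged 5.63 ± 2.68 CPM in Vehicle and 0.180 ± 0.108 CPM in Chow (log2 4.91, edgeR adjusted p = 8.42e-07). Its lowest Chow library, at 0.0351 CPM, was under the floor, so the size of that fold is uncertain. Svep1, a large adhesion protein gene, averaged 24.5 ± 2.86 CPM in Vehicle and 0.930 ± 0.376 CPM in Chow (log2 4.69, edgeR adjusted p = 3.52e-09). Fbn2, the gene of the second fibrillin, averaged 7.48 ± 3.40 CPM in Vehicle, while every Chow library was at or under the floor of 3 counts and none was above 0.0993 CPM, so that no fold is given. The 3 largest falls were in Creld2 (log2 -2.46, edgeR adjusted p = 1.06e-05), Kcp (log2 -1.66, edgeR adjusted p = 2.3e-05) and Pcolce2 (log2 -1.25, edgeR adjusted p = 0.0411). Pcolce2 overlapped between groups, at 0.470 to 2.21 CPM in Vehicle and 1.23 to 4.58 CPM in Chow. Creld2, which encodes a chaperone-like protein of the endoplasmic reticulum, varied widely in Chow, from 79.4 to 289 CPM. In SR9009 versus Vehicle 0 of the 74 were higher and 1 (Hmcn2) was lower, against 0.165% and 0.077% of all tested genes. The median there was 0.10. In SR9009 versus Chow 45 were higher and 8 lower, against 30.5% and 25.7%, with a median of 1.14.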

How the data were processed

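Bulk liver RNA of 14 libraries was analysed (5 SR9009, 5 Vehicle, 4 Chow). The values, as deposited by the authors, are unnormalized counts for each Ensembl gene, with a column for each library. Per the submitters' processing notes, STAR 2.7.11b and GRCm39 were used. The counter, annotation and handling of strand were not given in the sources used here, so overlapping and antisense genes are uncertain. A reference table named 51880 identifiers (90.8%), with 99.6% of counts.

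The members, lists and named-gene rule were chosen with earlier results of these data known. Counts were fitted with edgeR 4.0.16 in R 4.3.3, all groups in 1 model, with TMM factors, filterByExpr (minimum count 10, minimum total 15), robust quasi-likelihood F tests and Benjamini-Hochberg adjustment over 18181 genes at 0.05. The common coefficient of biological variation was 0.211. Standard errors are those that give the F value. Spreads used log2(CPM + 0.1). Floors cover counting error only. The scripts were tested on simulated data.

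Full values are given for the 3 members of each role with the smallest p in Vehicle versus Chow, members lower or not called there, members that failed the filter, and the 5 with the smallest p in SR9009 versus Vehicle. Other matrix genes are named by the 3 largest rises and falls among those called. Alternatives were DESeq2 1.42.0, limma 3.58.1 (voom), other scalings, filters and libraries, a replicate block and a receptor class term.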

Additional observations from a re-analysis of the deposited data

Results flagged for a closer look

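Igfbp7 in Chow replicate 1 was at 84.8 CPM, apart from the other Chow libraries, of which the nearest was at 70.6 CPM. It was the 1 value of this kind among 105 groups of values checked. Chance alone flags about 1 in 20 such groups, so 1 flag is no more than chance would give.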

How the results depend on the processing

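In Vehicle versus Chow, leaving out each of the 14 libraries in turn kept 32 higher and 2 lower calls. The number called lower was 1 with only the few-receptor diet-fed libraries, where Ecm1 (-0.41, edgeR adjusted p = 0.0924), Podn and Fbln1 lost their calls, and 0 without TMM factors. In SR9009 versus Vehicle, 1 member (Podn) was called higher with a receptor class term and 1 in DESeq2. In SR9009 versus Chow, the number called lower ran from 1 to 2 over the left-out libraries (2 without Vehicle replicate 4 or Chow replicate 4) and was 0 without TMM factors. Signs reversed for Ogn in Vehicle versus Chow with the class term (-0.019), and in SR9009 versus Chow for Ecm1 without TMM factors (0.15) and for Ogn among few-receptor libraries (-0.21), where Mfap4 also lost its call. The cause was not tested. The settings without TMM factors and with only few- or many-receptor diet-fed libraries were chosen after seeing the data. The class term lowered the Vehicle versus Chow median to 1.82.

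Replicate numbers do not pair the samples: 13 same-numbered pairs had correlations from -0.36 to 0.20. With a replicate block no member's call changed, and Podn in SR9009 versus Vehicle was at 0.76 (edgeR adjusted p = 0.306). Over all genes that comparison had 30 higher and 14 lower calls, against 14 and 1 with the block, 124 and 88 in DESeq2 and 40 and 26 in limma-voom. Depth limited what could be tested: Mfap5 and Aspn had too few counts to pass the filter.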

Other observations

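Hmcn2, which encodes a large extracellular protein of the hemicentin family, was the 1 gene of the 96 other matrix genes called between SR9009 and Vehicle. It was chosen after its values were seen. It was at 2.503, 2.76, 3.15, 2.82 and 2.27 CPM in SR9009, 4.74, 6.02, 3.89, 5.14 and 5.53 CPM in Vehicle and 5.19, 8.30, 8.08 and 5.32 CPM in Chow livers. Every SR9009 liver was below every Vehicle and every Chow liver. Lying below Vehicle without overlap was so for 0.979% of all tested genes. The SR9009 to Vehicle ratio was 0.533 (0.415 to 0.686, edgeR adjusted p = 0.0373). The adjusted p was 0.000132 in DESeq2, 0.0692 in limma-voom and 0.117 with the replicate block. Hmcn2 was not called within either receptor class, with edgeR adjusted p = 0.809 where few were detected and 0.288 where many were. Leaving out each of the 14 libraries in turn, the log2 difference ran from -0.99 to -0.84 and stayed called in 5 of 14 fits, with adjusted p-values from 0.0321 to 0.130.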
